A study of Mus musculus with 8 samples.

Results

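The comparison is between LSK cells of mice that lack Cbfb in blood cells and LSK cells of mice that keep 1 working copy. It takes 4 of the 8 arrays of the series, 2 labelled KO LSK and 2 labelled Het LSK, and 21789 of the 35556 rows of the value table, which are the rows that carry exactly 1 gene symbol and stand for 19938 genes. LSK cells are the lineage-negative, Sca-1-positive, Kit-positive cells of the bone marrow, the fraction that holds the stem cells and the earliest multipotent progenitors. The KO mice were Vav1-iCre x Cbfb(F/F) and the Het mice Vav1-iCre x Cbfb(F/+), so both groups carried the Cre transgene and at least 1 floxed allele, and neither group was wild type. All mice were 7 weeks old and on a C57BL6 background (labelled N12 backcrossed), 200000 cells were sorted for each sample, and the stated purity was above 98%. RNA was amplified and hybridised to Affymetrix Mouse Gene 1.0 ST arrays, which read a transcript with probes along its length. The other 4 arrays hold GMP (granulocyte and monocyte progenitors) of the same 2 genotypes.

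CBFβ, the product of Cbfb, binds no DNA by itself. It pairs with RUNX1, RUNX2 or RUNX3, holds them on the DNA and protects them from degradation, so its loss disables all of them together. In bone marrow progenitors the RUNX1 complex is known for opening lymphoid genes, for the maturation of megakaryocytes and for restraining myeloid growth. Vav1 regulatory sequence is known to drive Cre in blood cells from before birth. In these bulk samples fewer cells of a type within the LSK gate and less RNA per cell cannot be told apart.

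RUNX proteins bind the core TGTGGT, and less strictly TGCGGT. Promoters of some called genes with large changes are shown because they carry this core or lack it. Ccl3, Ebf1 and Rag1 were among the genes that fell in KO, Cpa3 and Clec1b among those that rose. These were picked by hand, so how many of them carry the core does not describe the called genes at large. Each line gives the 250 bases before the first listed start site in the RefSeq table (build GRCm38.p6), 5′ to 3′ on the gene's own strand, with each core or its reverse complement in capitals.
Ccl3, chr11:83649379-83649628, minus strand: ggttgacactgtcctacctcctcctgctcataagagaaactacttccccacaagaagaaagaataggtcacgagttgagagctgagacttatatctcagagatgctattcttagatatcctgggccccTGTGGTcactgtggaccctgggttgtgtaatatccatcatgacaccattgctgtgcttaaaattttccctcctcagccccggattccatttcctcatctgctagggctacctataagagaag
Ebf1, chr11:44617850-44618099, plus strand: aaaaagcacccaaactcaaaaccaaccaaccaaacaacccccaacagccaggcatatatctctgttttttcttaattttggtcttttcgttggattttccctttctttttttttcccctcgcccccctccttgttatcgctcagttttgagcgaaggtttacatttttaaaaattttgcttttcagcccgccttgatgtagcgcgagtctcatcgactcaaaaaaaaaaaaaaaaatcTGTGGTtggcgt
Rag1, chr2:101649533-101649782, minus strand: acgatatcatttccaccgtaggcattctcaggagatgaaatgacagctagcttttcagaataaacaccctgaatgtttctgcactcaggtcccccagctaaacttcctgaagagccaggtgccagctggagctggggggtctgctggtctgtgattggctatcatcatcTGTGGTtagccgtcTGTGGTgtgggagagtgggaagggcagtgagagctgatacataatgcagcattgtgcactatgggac
Cpa3, chr3:20242182-20242431, minus strand: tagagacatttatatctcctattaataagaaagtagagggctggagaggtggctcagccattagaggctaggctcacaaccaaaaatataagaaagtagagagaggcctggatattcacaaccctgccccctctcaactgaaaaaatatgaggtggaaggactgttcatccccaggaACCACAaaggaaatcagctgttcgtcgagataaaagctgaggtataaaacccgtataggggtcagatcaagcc
Clec1b, chr6:129397047-129397296, plus strand: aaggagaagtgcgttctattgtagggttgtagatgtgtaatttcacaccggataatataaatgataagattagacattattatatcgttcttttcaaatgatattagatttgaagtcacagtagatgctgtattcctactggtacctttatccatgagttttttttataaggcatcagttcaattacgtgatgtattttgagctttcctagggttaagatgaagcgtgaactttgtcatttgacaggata
The core began 122 bases before the start of Ccl3, 12 before that of Ebf1, 81 and 67 before that of Rag1 and 73 before that of Cpa3. These letters were not found in the window of Clec1b, the gene with the largest rise. Over windows of 300 bases (250 before the start and 50 after it), TGTGGT or TGCGGT on either strand stood in 120 of 456 promoters of genes called higher (26.3%), in 186 of 755 called lower (24.6%) and in 3311 of all 15563 matched (21.3%). Both directions of change therefore stood slightly above all promoters, with no test of the difference. The motif of GATA factors, AGATAA, stood in 11.2% of promoters of genes called higher, 7.42% of those called lower and 9.55% of all, and that of ETS factors, AGGAAG, in 37.3%, 36.2% and 33.2%. Most called genes were above the level of silent genes (defined below) in at least 1 genotype. Among all 10848 promoters of such genes, AGATAA stood in 6.90%, AGGAAG in 33.6% and TGTGGT or TGCGGT in 21.3%. Against these genes AGATAA was not rarer among those called lower. A match is a string of letters and does not show binding.

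The values are log2 expression values, so a difference of 1 is a 2-fold difference, and a gene was called when the limma p adjusted over all 21789 rows was under 0.05. Of these rows 1684, or 7.73%, were called, 657 higher and 1027 lower in KO. Counted as genes, 7.81% were called, 2.99% higher (596 genes) and 4.82% lower (962 genes). The excess of falls depends on the scaling: after each array's median was subtracted, 903 rows were higher and 821 lower. The count was lower when either Het LSK array was left out, a step that also changes the estimate of the spread. A call that also passed in each of the 8 refits without 1 array is named stable here, which held for 723 of the 1684 rows (42.9%).

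The arrays of a genotype were close to each other. The 2 Het LSK arrays correlated at 0.9936 over the tested rows, the 2 KO LSK arrays at 0.990, and arrays of different genotype at 0.9755 to 0.977. The median gap between replicates was 0.15 log2 in Het and 0.19 in KO. With 2 arrays against 2, groups that do not overlap are common: they occurred in 9916 rows, 45.5% of those tested. A stricter measure is the gap between the groups, from the lowest array of the higher group to the highest of the lower one, set against the larger gap between replicates.

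By that measure 3896 rows, or 17.9%, were separated by more than their replicates. Among the called rows the groups never overlapped, 1528 of 1684 (90.7%) were separated by more than the replicate gap, and 1043 (61.9%) by more than 2 times that gap. Among the rows that were not called, 2368 of 20105 (11.8%) were separated by more than the replicate gap. The smallest called difference was 0.43 log2. Of the called rows 731 differed by at least 1 log2 (293 higher, 438 lower), 197 by at least 2 (95 and 102), 61 by at least 3 (31 and 30) and 11 by at least 4 (6 and 5), so rises and falls were about equal in number among the large changes. A test against a 2-fold minimum called 199 rows, 93 higher and 106 lower.

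**Figure D1:**
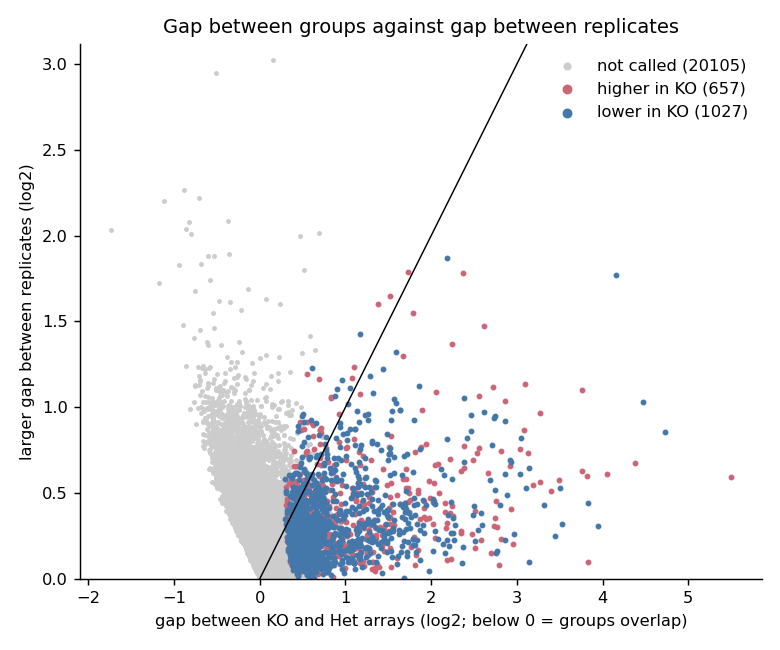
Each point is 1 of 21789 rows; the x axis is the gap between the KO and Het LSK arrays and the y axis the larger gap between replicates, both in log2, and the line marks equal gaps. The 657 rows called higher (red) and 1027 called lower (blue) lie to the right of 0, and 1528 of them lie to the right of the line.

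Of the genes of the LSK gate, Kit and Cd34 were read at high levels in both genotypes, and some others changed. Kit, the receptor that defines the K of LSK, stood at 10.08 and 10.30 in Het replicates 1 and 2 and at 10.76 and 10.50 in KO, and Cd34 at 11.05 and 11.04 against 10.81 and 10.78. Of 12 measured genes of an LSK list (Ly6a, which encodes Sca-1, was not analysed here), 2 were higher in KO (Cd48, Slamf1) and 4 lower (Flt3, Procr, Mecom, Hlf). The mean over the list was 8.84 and 9.04 in Het and 8.74 and 8.37 in KO. The fall of Hlf (9.16 and 9.44 in Het, 8.66 and 7.71 in KO) was not stable, with an adjusted p of up to 0.21 when an array was left out. None of 9 genes of mature cells that the lineage sort removes was called, with 0 higher and 0 lower by limma, and Cd4 (4.80 and 4.19 in Het, 3.80 and 3.54 in KO) had the lowest adjusted p, 0.0504. Their summed level, as a mean over the list, was 4.24 and 4.37 in Het and 4.08 and 3.87 in KO. Cbfb itself differed by -0.60 (adjusted p = 0.0557; 0.0252 without either KO GMP array and 0.0917 to 0.192 without any of the others), and the labels do not tell whether its probes lie in the deleted part.

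The 3 largest rises were of genes that Het LSK cells read at the level of silent genes. The level of a silent gene was taken from odorant and pheromone receptors, 95% of whose rows lay at or under 3.99 log2, and is named the receptor level here. Clec1b, the podoplanin receptor of platelets, read 3.14 and 3.35 in Het and 9.45 and 8.86 in KO, a difference of 5.91 ± 0.21 (SE). Fgf10, a fibroblast growth factor, read 3.26 and 2.86 against 8.32 and 7.64, and Kcnk9, a potassium leak channel, 2.89 and 3.55 against 8.41 and 7.31. For each of these both Het arrays were at the receptor level and both KO arrays far above it. In all, 69 of the 596 genes called higher (11.6%) rose from the receptor level in Het, and 103 of the 962 called lower (10.7%) fell to it in KO.

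The falls at the other end took well-expressed genes down. Ccl3, a chemokine that draws in myeloid and T cells, read 9.44 and 10.46 in Het and 4.96 and 4.30 in KO. Lsp1, an actin-binding protein of leukocytes, read 9.25 and 9.56 against 5.30 and 5.09, and Emb, a membrane glycoprotein, 9.69 and 9.45 against 5.62 and 5.18. Genes that reached the receptor level in KO included B3gnt5 (6.87 and 6.99 in Het, 3.34 and 3.02 in KO), the synthase that starts lacto-series glycolipids. Others were Ebf1, Blnk and Cd79a of the B lineage. All 15 of the largest rises and all 15 of the largest falls were separated by more than their replicate gap and were stable. They were picked from called genes without overlap, and all 61 called rows that differed by at least 3 log2 were separated in that way, so the separation follows largely from the choice.

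**Figure D2:**
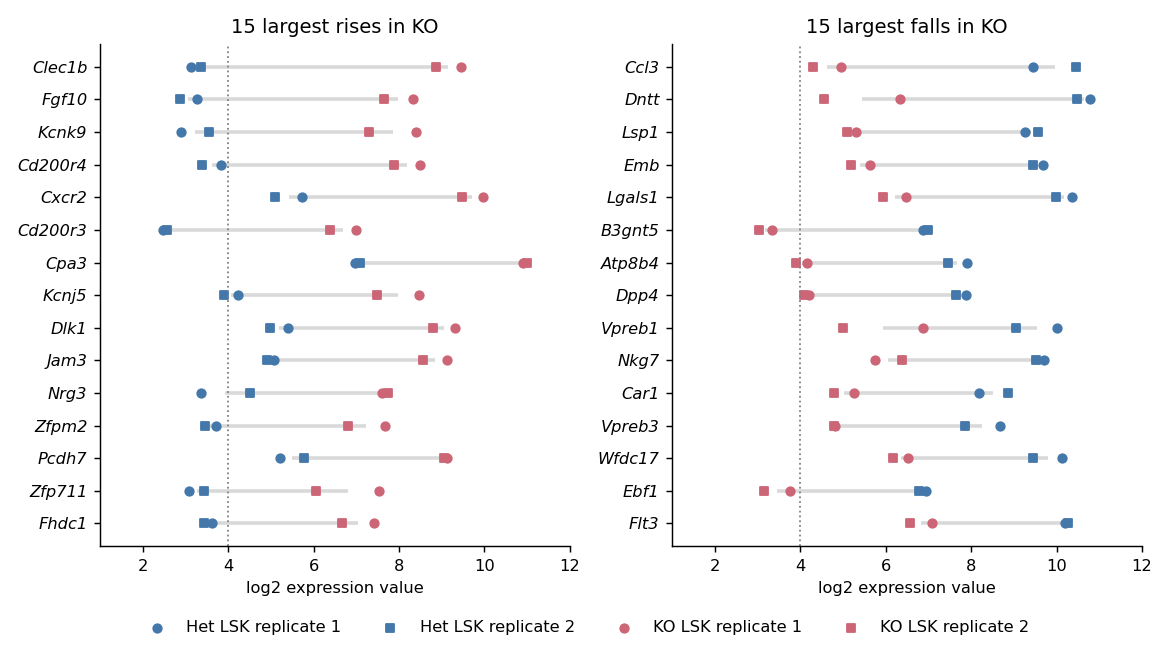
Log2 expression values (x axis) of the 15 genes with the largest rises and the 15 with the largest falls, 1 point per array, Het LSK in blue and KO LSK in red, with a grey line between the means and the receptor level of 3.99 dotted. The genes were picked from called genes whose KO and Het arrays do not overlap, so the genotypes are apart for every gene by selection. Clec1b read 3.14 and 3.35 in Het against 9.45 and 8.86 in KO.

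**Figure D3:**
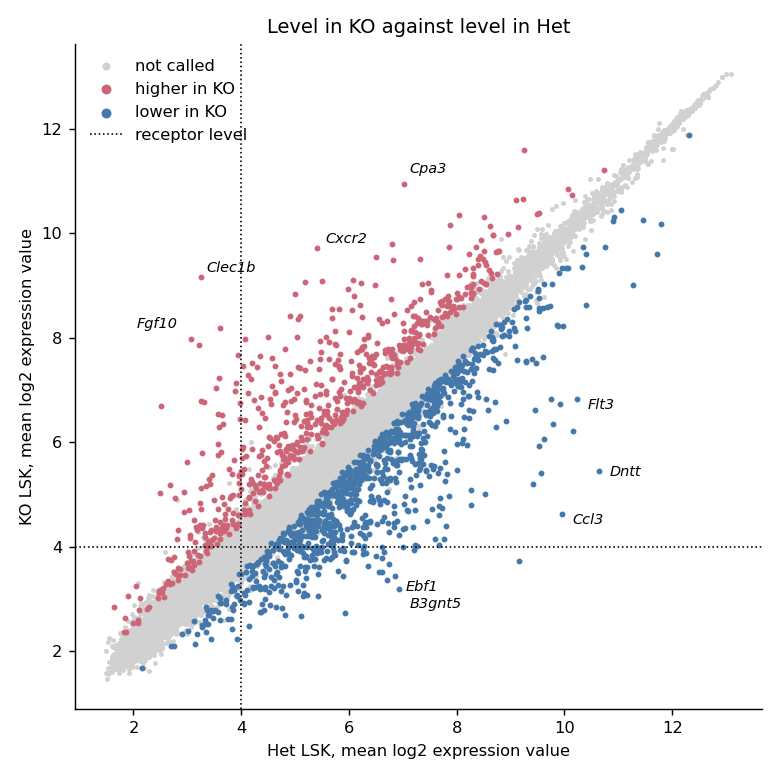
Mean log2 value in KO LSK (y axis) against Het LSK (x axis) for all 21789 rows, called rows in colour and the receptor level of 3.99 dotted. Called falls such as Ebf1 end under the level and called rises such as Fgf10 start under it, and 69 genes rose from it while 103 fell to it.

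Sorting genes by what they make, by lists built on gene symbols, showed where the calls lay. Of 601 measured genes for secreted proteins 42 were higher and 43 lower, 14.1% in all against 7.81% of all genes. Of 1498 genes for surface proteins 86 were higher and 121 lower (13.8%), and of 443 for signalling proteins 32 and 36 (15.4%). Nuclear regulators followed with 29 and 62 of 942 (9.66%) and metabolic enzymes with 18 and 35 of 436 (12.2%). Of 699 genes for general cell machinery 11 were higher and 33 lower (6.29%). The median difference over the secreted genes was 0.06 and over the surface genes 0.01, beside 0.01 over all genes, so neither class moved one way.

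Chemokines, the ligands that steer white cells, split by member, and 27.8% of them were called, beside 7.81% of all genes. Of 36 ligands 7 fell and 3 rose, and 5 of the falls were stable. Ccl3 was followed by Ccl9 (7.75 and 7.63 in Het, 5.14 and 4.72 in KO) and Ccl5 (8.24 and 7.77 against 5.97 and 5.94). Ccl2, the main chemokine for monocytes, went the other way, from 4.50 and 5.12 to 7.78 in both KO arrays, a difference of 2.97 ± 0.23. The 2 KO arrays were above both Het arrays for Ccl2 and under both for the other 3. Groups without overlap are the rule in called rows, where all had none, and occurred in 45.5% of all rows. Cxcl2 was also called higher (3.58 and 4.50 against 5.43 and 6.39), but the gap between its nearest KO and Het arrays was smaller than that between the KO replicates, and its adjusted p was 0.118 without Het LSK replicate 1 and 0.0768 without KO LSK replicate 2.

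Interleukins and blood growth factors changed in both directions, 6 higher and 3 lower of 46 (19.6% called, beside 7.81% of all genes). The count higher was 2 without Het LSK replicate 1, KO LSK replicate 2 or either KO GMP array and 1 without Het LSK replicate 2. Il18, an activator of NK and T cells, read 6.61 and 6.62 in Het and 4.0 and 3.03 in KO, and Ebi3, a subunit of IL-27 and IL-35, 7.85 and 8.35 against 6.35 and 5.62. In the TNF family 4 of 15 ligands fell and none rose, with 1 higher and 4 lower at an unadjusted limma p under 0.05, and without KO LSK replicate 1 a single ligand was called higher. Ltb, the lymphotoxin subunit used in lymph node formation, read 6.65 and 7.38 against 4.93 and 4.71, Tnf 6.47 and 6.43 against 4.50 and 5.20, and Tnfsf10 (TRAIL) 6.91 and 7.03 against 5.65 and 5.66. These 3 falls were stable, and that of Tnfsf8 was not. Il4, the cytokine of type 2 responses, rose from 4.56 and 4.66 to 6.05 and 5.98, and it was the single stable rise of the 6.

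Some growth and guidance factors better known from other tissues rose. Nrg3, a ligand of the ERBB4 receptor, read 3.36 and 4.50 in Het and 7.60 and 7.74 in KO, and with Fgf10 it made the 2 stable rises of 6 among 56 tissue growth factors (2 without Het LSK replicate 2, 3 without KO LSK replicate 1). Slit2, a repellent of growing axons and migrating leukocytes, read 3.15 and 3.69 against 5.53 and 4.86. Sema3a (2.90 and 2.59 against 3.80 and 3.78) and Sema3e (3.52 and 3.53 against 4.59 and 4.41), of the same guidance group, rose by 1.05 and 0.98. Sema3a remained under the receptor level in KO, so its rise is within the range of silent genes. Bmp7, a bone morphogenetic protein, rose from 4.38 and 4.25 to 5.43 and 5.31. None of 19 Wnt ligands was called by limma, with 1 higher and 0 lower at an unadjusted p under 0.05.

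Falls outnumbered rises among the called cathepsins and protease inhibitors, as they did over all genes (4.82% lower, 2.99% higher). Of 17 cathepsins, the lysosomal proteases, 4 fell and none rose (0 higher and 9 lower at an unadjusted p under 0.05, limma). Ctss, which trims the invariant chain for MHC class II loading, read 8.19 and 7.83 in Het and 5.34 and 5.58 in KO, Ctsw 5.79 and 5.59 against 3.91 and 3.69, and Ctsh 5.15 and 5.47 against 3.84 and 3.82. These 3 falls were stable and the fourth, Ctsl, was not. Among 75 serpins, cystatins and related inhibitors 7 fell and 3 rose (13.3% called, beside 7.81% of all genes). At an unadjusted limma p under 0.05 there were 10 higher and 8 lower. Their median difference was 0.03, so the inhibitors did not move one way. The falls were led by Wfdc17 (10.13 and 9.45 against 6.53 and 6.17), Serpinf1 (7.77 and 7.93 against 4.95 and 5.0) and Wfdc18 (5.81 and 5.97 against 3.30 and 3.56).

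Of 28 granule protease and related genes 1 rose and 3 fell (14.3% called, beside 7.81% of all genes). Cpa3, the carboxypeptidase of mast cells, rose from 6.98 and 7.08 in Het to 10.90 and 10.99 in KO, while Prss57 (6.42 and 5.89 against 4.57 and 3.49), Mcpt8 (6.07 and 6.09 against 4.45 and 4.32) and Mpo (11.48 and 11.41 against 10.58 and 9.94) fell. Mcpt8 marks basophils and Mpo is the peroxidase of neutrophil granules, not a protease. The granule protease genes Elane, Prtn3 and Ctsg were not called (limma adjusted p of 0.877, 0.365 and 0.0578). Hdc, which makes histamine, rose from 5.24 and 6.23 to 8.12 in both KO arrays. Of 13 mast cell, basophil and eosinophil markers only Cpa3 and Hdc rose and Mcpt8 fell. Mcpt4, Cma1, Tpsb2 and Fcer1a were at the receptor level in both genotypes, as was Tpsab1, which is annotated as a transcribed pseudogene. The mean level of the list was 4.42 and 4.79 in Het and 4.97 and 4.77 in KO.

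Of 91 matrix genes 8 rose and 2 fell (11% called, beside 7.81% of all genes), but 5 were higher when any 1 of the 4 LSK arrays was left out. Ecm1, a glycoprotein that binds collagen networks, read 5.92 and 6.04 in Het and 9.07 and 8.77 in KO. Sparc, a collagen-binding protein also stored in platelets, read 4.70 and 4.36 against 5.84 and 6.33, and Thbs2, a thrombospondin, 3.14 and 3.09 against 4.34 and 4.67. Bgn, the proteoglycan biglycan, fell from 5.31 and 5.35 to 3.63 and 3.91. Collagen genes of stroma did not pass the test, with Col1a1 at 4.73 and 4.82 against 4.90 and 4.79, and the endothelial and stromal list of 12 had a mean of 4.59 and 4.71 in Het and 4.37 and 4.38 in KO. Apoe, the apolipoprotein that carries lipids out of cells, rose from 9.01 and 9.47 to 11.70 and 11.50.

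**Figure D4:**
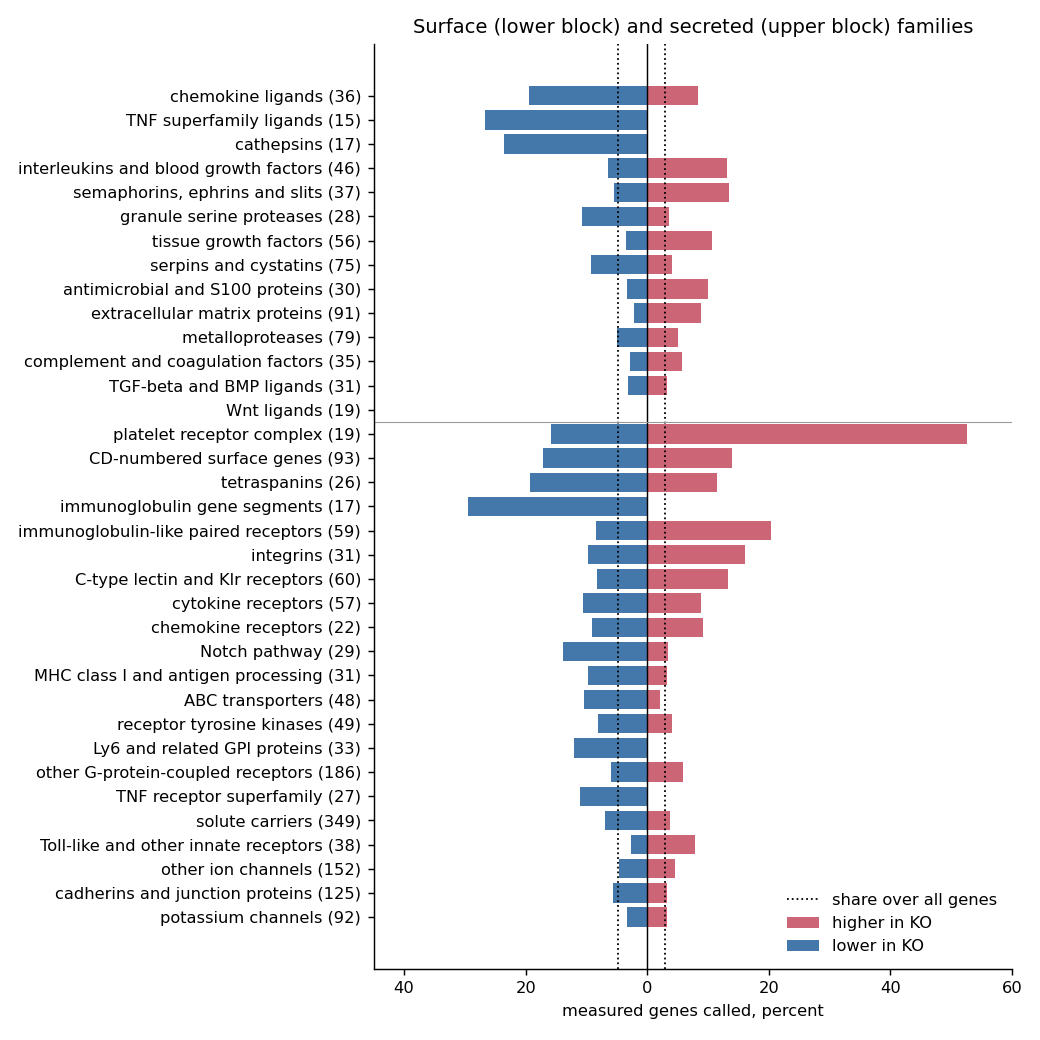
Percent of measured genes called higher (red, to the right) and lower (blue, to the left) in KO for secreted families (upper block) and surface families (lower block) with at least 15 members, the number measured in parentheses, and dotted lines at the shares over all genes, 2.99% and 4.82%. Platelet receptors extend farthest to the right, with 10 of 19 higher, and TNF ligands extend to the left only, with 4 of 15 lower. The families were chosen with earlier results of these arrays known, so their order is a description.

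Surface receptors of platelets and their precursors had the largest share of rises among the 81 families. The families were chosen with earlier results of these arrays known, so this rank is a description. Of 19 genes 10 rose, all of them stable, and 3 fell, none of them stable (1 lower without Het LSK replicate 2). Gp5, a subunit of the receptor for von Willebrand factor, read 6.98 and 6.63 in Het and 9.88 and 9.72 in KO, and Treml1, a receptor of platelet granules, 6.69 and 6.29 against 9.88 and 9.19. Jam3, a junction molecule, read 5.06 and 4.92 against 9.13 and 8.55, and F2r, the thrombin receptor PAR1, 7.98 and 8.10 against 10.33 and 10.38. F2rl2, another protease-activated receptor, rose by 1.61 ± 0.23.

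Marker genes of platelets and megakaryocytes include members that were lower or not called. On the list of megakaryocyte and platelet markers 6 of 11 rose, and the summed level, as a mean over the list, was 6.03 and 6.07 in Het and 7.70 and 7.48 in KO. Pf4, the chemokine of platelet granules, was lower in KO (8.69 and 8.84 against 7.33 and 7.70), with an adjusted p of 0.0094 that rose to 0.0707 without Het LSK replicate 2. Ppbp (4.83 and 5.01 against 5.51 and 5.33), Tubb1 (4.58 and 4.40 against 4.82 and 4.0), Vwf (5.65 and 5.70 against 4.94 and 4.89) and Gp9 (6.74 and 6.82 against 7.44 and 7.13) were not called. Itga2b and Itgb3, which pair as the platelet fibrinogen receptor, both rose, by 2.68 ± 0.20 and 1.87 ± 0.27. What share of these differences came from platelets or megakaryocytes in the gate was not tested.

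Integrins otherwise changed in both directions, 5 higher and 3 lower of 31 (25.8% called, beside 7.81% of all genes). Itga9, a receptor for tenascin and VCAM1, rose from 5.30 and 5.94 to 7.79 and 7.38. Itgb5, a vitronectin receptor subunit, fell from 5.62 and 6.06 to 3.88 and 3.99. Adhesion molecules with large falls included Alcam (6.76 and 7.01 in Het, 4.28 and 4.71 in KO), the CD6 ligand, and the tetraspanins Cd63 (9.51 and 9.42 against 7.31 and 7.73) and Cd82 (7.08 and 7.61 against 5.99 and 5.73). Tspan18, another tetraspanin, rose from 4.05 and 3.98 to 6.04 and 5.35. Pcdh7, a protocadherin, rose by 3.59 ± 0.18.

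The CD200 receptor genes rose as a block. Cd200r4 read 3.84 and 3.39 in Het and 8.50 and 7.88 in KO, and Cd200r3 2.47 and 2.56 against 6.98 and 6.38. Cd200r1 and Cd200r2 rose by 2.32 and 2.17. These are near-identical neighbouring genes, so probes may be shared between them, and the last 2 were singled out after their values were seen. Of 59 paired immunoglobulin-like receptors 12 rose and 5 fell, with 3 lower without Het LSK replicate 2 and 8 without KO LSK replicate 1. Lilrb4a, an inhibitory receptor of myeloid cells, read 5.03 and 5.08 against 8.92 and 7.80.

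C-type lectins also moved in both directions, 8 higher (5 without Het LSK replicate 1) and 5 lower of 60. With all arrays in the fit 21.7% of these lectins were called, beside 7.81% of all genes. Clec4e, the receptor Mincle for mycobacterial glycolipid, rose from 6.20 and 5.98 to 8.79 in both KO arrays. Clec9a, a receptor for damaged cells known from dendritic cells, read 3.94 and 5.07 against 8.69 and 7.32. Cd72, an inhibitory B cell receptor, fell from 6.97 and 7.12 to 4.24 and 4.47, and Clec12a from 7.40 and 7.01 to 5.38 and 4.40. Of 11 measured markers of monocytes, macrophages and dendritic cells, 1 rose and 5 fell, and the list mean was 5.60 and 5.77 in Het and 4.70 and 4.68 in KO.

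Both receptors for the neutrophil-attracting chemokines rose. Cxcr2 read 5.73 and 5.10 in Het and 9.96 and 9.48 in KO, and Cxcr1, its neighbour and paralog, 4.79 and 4.89 against 6.75 and 6.40. Ccr9, which guides cells to thymus and gut, fell from 5.47 and 5.93 to 3.82 and 4.27. Neutrophil granule genes gave no such split: of 12 neutrophil markers only Cxcr2 and Retnlg were called. S100a8, an abundant neutrophil transcript, read 11.02 and 11.99 in Het and 11.70 and 11.21 in KO, and Ngp 7.95 and 9.85 against 8.31 and 7.07. The list mean was 6.71 and 7.93 in Het and 7.90 and 7.32 in KO, so the replicates of Het differed by more than the groups. Retnlg (5.38 and 7.03 against 8.55 and 8.70) lost its call without KO LSK replicate 2, at an adjusted p of 0.0595.

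Among receptors for growth factors, Flt3 and Pdgfrb fell and Tek rose. Flt3, the cytokine receptor of lymphoid-primed progenitors, read 10.20 and 10.28 in Het and 7.09 and 6.56 in KO, and Pdgfrb, a platelet-derived growth factor receptor, 6.77 and 7.08 against 4.52 and 3.94. Tek, the angiopoietin receptor TIE2 of stem cells and endothelium, read 5.33 and 5.59 against 8.10 and 7.78. All 4 falls among 49 receptor tyrosine kinases were stable. Procr, the protein C receptor of the most primitive stem cells, fell from 6.34 and 7.10 to 4.43 and 4.47, and Thy1 from 7.20 and 6.82 to 3.59 and 4.41. Mecom, a transcription factor of stem cell maintenance, fell by 2.47 ± 0.26, while Slamf1 (CD150) rose from 4.72 and 5.08 to 7.54 and 7.07 and Cd48 from 9.48 and 9.0 to 10.55 and 10.75.

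Receptor genes of lymphocyte cytokines were among the falls. Il7r, the receptor B and T precursors need, read 7.42 and 7.16 in Het and 5.93 and 4.98 in KO, Il18rap 6.82 and 6.70 against 5.55 and 5.01, and Il2rb 5.45 and 5.27 against 3.83 and 4.0. With the fall of Il18 both the ligand and a subunit of its receptor were lower in KO. Of 57 cytokine receptors 6 fell (3 without Het LSK replicate 1) and 5 rose (2 without either Het LSK array, 1 without KO LSK replicate 1). The rise of Csf2rb2 (6.52 and 6.19 against 8.43 and 7.61) was one of those that were not stable.

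In the pathway of antigen presentation by MHC class II, 4 of 12 genes fell (33.3%, beside 4.82% of all genes called lower), each of them stable, and none rose. Over the 12 genes at an unadjusted limma p under 0.05 there were 0 higher and 7 lower. Cd74, the invariant chain, read 7.35 and 8.27 in Het and 4.31 and 4.48 in KO, H2-Aa 8.28 and 8.89 against 6.47 and 6.76, and H2-Eb1 6.95 and 7.79 against 5.51 and 5.98. Ctss, the protease that processes the invariant chain, was the fourth. The KO arrays lay under the Het arrays in each, as the groups did not overlap in any called row. Among 31 genes of class I and its processing no call was stable.

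Other surface proteins with large, stable changes were transporters and G-protein-coupled receptors. Cnr2, the cannabinoid receptor of leukocytes, rose from 4.29 and 4.94 to 7.58 and 7.33, and Gpr171 fell from 9.49 and 9.72 to 7.70 and 7.54. Kcnj5, an inward rectifier potassium channel, rose from 4.23 and 3.90 to 8.46 and 7.49, and Kcnq5, a voltage-gated one, fell from 6.0 and 5.40 to 3.78 and 4.16. Slc7a8, an amino acid transporter, rose from 5.71 and 5.66 to 8.58 and 8.50. Abcb1b, a multidrug efflux pump, fell from 6.97 and 6.70 to 4.75 and 4.78, and the pump Abcc4 rose by 1.23 ± 0.12. Potassium channels were called at 6.52% of 92 genes and solute carriers at 10.6% of 349, beside 7.81% of all genes. The solute carriers, 13 higher and 24 lower, fell to 7 higher and 10 lower without either Het LSK array, to 14 lower without KO LSK replicate 2 or either Het GMP array and to 15 lower without either KO GMP array.

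Some calls did not pass when 1 array was left out, a step that also changes the estimate of the spread. P2rx7, an ATP-gated channel, read 5.76 and 5.60 in Het and 9.27 and 7.49 in KO, so the gap between the groups was smaller than that between the KO arrays. Its adjusted p of 0.00858 became 0.0622 without Het LSK replicate 2. In Stard9 (5.17 and 5.37 against 8.36 and 6.75) omitting Het LSK replicate 1 (0.0818) or replicate 2 (0.0606) lost the call. Plbd1, a phospholipase (5.90 and 7.33 against 4.26 and 4.73), lost it without Het LSK replicate 2 (0.0997) or KO LSK replicate 1 (0.0866).

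**Figure D5:**
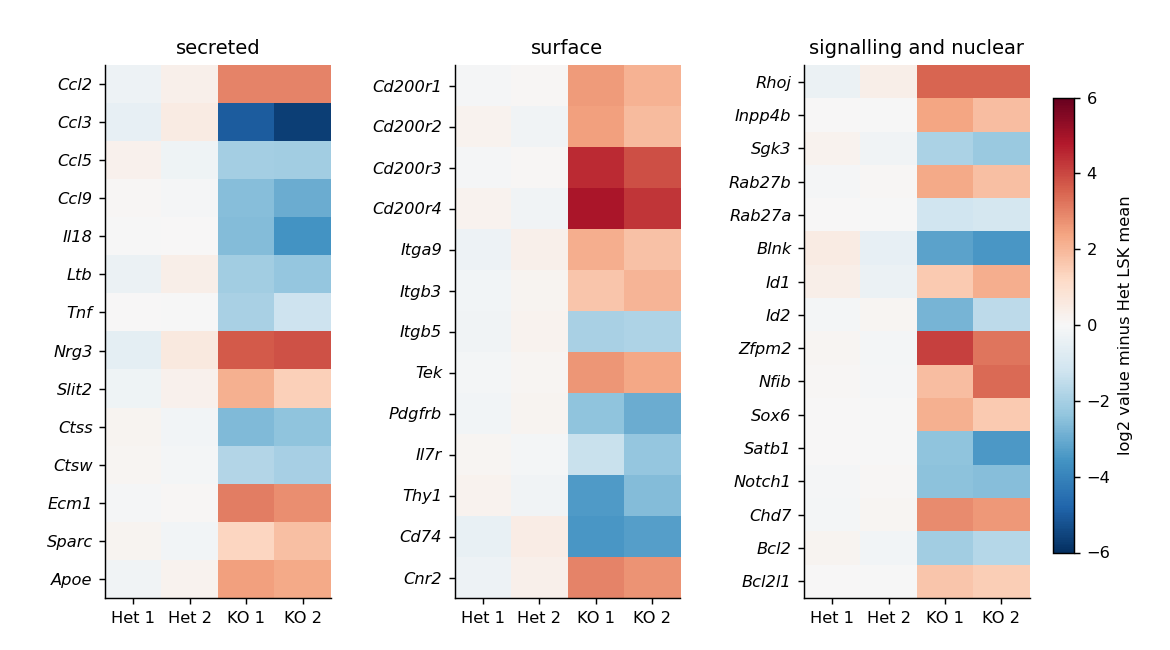
Log2 value minus the Het LSK mean (colour, red higher and blue lower) for genes named in the text in columns of Het LSK replicates 1 and 2 and KO LSK replicates 1 and 2, in panels for secreted, surface, and signalling and nuclear genes. Opposite colours stand within families, as in Ccl2 (difference 2.97) and Ccl3 (-5.32), or Rab27b (2.03) and Rab27a (-1.11).

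Among signalling genes, some close relatives differed in sign. Rab27b rose from 4.36 and 4.52 to 6.69 and 6.24 while Rab27a fell from 8.32 and 8.24 to 7.10 and 7.23; both are GTPases of granule release. Rhoj, a small GTPase known from endothelium, rose from 4.55 and 5.28 to 8.43 and 8.40. Dock9 rose by 1.56 ± 0.18 and Dock5 fell by 1.66 on the log2 scale, both guanine nucleotide exchange factors.

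In the phosphoinositide pathway, Inpp4b, a phosphatase that removes PI3K products, rose from 5.76 and 5.73 to 8.13 and 7.61, and Pik3cb, a catalytic subunit of PI3K, from 6.33 and 6.42 to 7.54 and 7.47. Sgk3, a kinase downstream of them, fell from 7.77 and 7.36 to 5.66 and 5.32. Ptprm, a receptor tyrosine phosphatase of cell contacts, rose from the receptor level, 3.86 and 3.92 in Het, to 7.07 and 6.87. Prkar2b, a regulatory subunit of protein kinase A, rose by 1.87 ± 0.11. Genes of feedback on cytokine signals gave no call: of 18 SOCS, Cish and STAT genes 3 were higher and 2 lower at an unadjusted limma p under 0.05, and without Het LSK replicate 1 there was 1 called in each direction.

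Genes of antigen receptor signalling changed in both directions. Blnk, the adaptor of the B cell receptor, read 7.18 and 6.23 in Het and 3.49 and 3.22 in KO, and Cd79a, its signalling chain, 6.82 and 6.30 against 3.56 and 3.47. Lat, the adaptor of T cells that platelets also use, rose from 8.22 and 8.67 to 9.86 and 9.87, and Prkcq, a kinase shared in the same way, from 7.16 and 7.23 to 8.53 and 8.31. Of 27 genes 5 were higher and 6 lower, with 3 lower without Het LSK replicate 1. The surrogate light chain genes Vpreb1, Vpreb3 and Igll1 fell by 3.60, 3.47 and 3.18, and of 17 immunoglobulin gene segments and relatives 5 were lower and none higher (1 higher without KO LSK replicate 2; at an unadjusted limma p under 0.05, 1 higher and 8 lower). Of 11 measured B cell markers 6 fell, and the list mean was 6.11 and 5.77 in Het and 4.77 and 4.38 in KO.

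Among nuclear regulators the lymphoid fate list had the largest share of calls: 16 of 25 fell, 12 of them stable, and 1 rose (Gata3, not stable and with no call without Het LSK replicate 1 or KO LSK replicate 1). The list was built with earlier results of these arrays known, so its count is a description. Ebf1, the founding factor of the B lineage, read 6.93 and 6.79 in Het and 3.75 and 3.14 in KO, Rag1, of the recombinase, 7.01 and 5.69 against 4.10 and 3.16, and Notch1, the receptor that starts T cell fate, 7.69 and 7.87 against 5.32 and 5.21. Satb1, an organiser of lymphoid chromatin, read 9.76 and 9.73 against 7.35 and 6.29. The T and NK cell list of 12 had a mean of 4.82 and 4.69 in Het and 4.14 and 4.16 in KO, with Cd3g, Cd3d, Klrb1c and Gzma at the receptor level in both. Of the 12, Lat was called higher and Il2rb, Nkg7 and Klrb1c lower.

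Of the 942 nuclear regulators 29 rose, a share close to the 2.99% of all genes called higher. Those that rose were from several gene families. Zfpm2, a GATA cofactor known from heart and gonad and the paralog of the one that GATA1 uses, read 3.71 and 3.45 in Het and 7.66 and 6.80 in KO, and Nfib 3.06 and 2.93 against 4.84 and 6.39. Sox6, a factor of erythroid maturation, rose from 5.20 and 5.14 to 7.29 and 6.73 and its relative Sox5 from 3.95 and 3.97 to 5.28 and 5.13. Chd7, a chromatin remodeller, rose from 5.69 and 5.95 to 8.66 and 8.43. Zfp711, a zinc finger activator, rose by 3.54 ± 0.41. Runx1 itself rose from 9.09 and 9.13 to 10.88 and 10.40.

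The Id inhibitors, which block E proteins, differed in sign: Id1 rose from 5.29 and 4.57 to 6.49 and 7.10 and Id2 fell from 5.94 and 6.18 to 3.29 and 4.51. Id3, singled out after its values were seen, was also called lower (4.48 and 4.99 against 3.53 and 3.84), a call that was not stable, with an adjusted p of up to 0.236 when an array was left out. Of the nuclear receptors, Esr1, for estrogen, fell from 6.97 and 7.20 to 4.69 and 4.71 and Vdr, for vitamin D, from 6.53 and 6.23 to 4.46 and 4.48. Nfatc2, a calcium-responsive factor, fell by 1.82 on the log2 scale and Klf12 by 2.12. Prdm16, a factor of stem cell maintenance related to Mecom, fell from 6.49 and 6.44 to 5.27 and 5.33. The largest group, 404 C2H2 zinc finger genes, was called at 6.19%, near all genes.

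Metabolic families differed in their share of calls. Ldhb, the lactate dehydrogenase of oxidative tissues, fell from 7.56 and 7.79 to 4.98 and 4.59, and it was the single stable call of 24 glycolysis genes (4 lower; 2 without Het LSK replicate 1 and 1 without Het LSK replicate 2). Of 99 subunits of oxidative phosphorylation 2 fell, the tissue isoforms Cox6b2 (8.21 and 8.06 in Het, 6.34 and 6.60 in KO) and Cox6a2 (7.91 and 6.75 against 5.79 and 5.57). Cox6a2 was not called without KO LSK replicate 2. Of 32 genes of cholesterol and fatty acid synthesis 6 fell and 1 rose (21.9% called), with 3 lower without KO LSK replicate 2 or either Het LSK array. Elovl5, a fatty acid elongase, fell from 9.55 and 9.49 to 8.51 and 8.63, and its relative Elovl7 rose from 5.44 and 5.70 to 6.94 and 7.02. Fads2, a fatty acid desaturase, fell from 8.49 and 7.96 to 6.60 and 6.30, and the carbonic anhydrase Car2 from 9.07 and 9.50 to 7.40 and 7.65.

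Glycan enzymes changed in both directions, 11 higher and 14 lower of 144, with 6 lower without Het LSK replicate 1, 8 lower without Het LSK replicate 2 and 7 higher without KO LSK replicate 1 or either Het LSK array. Chst1, a keratan sulfotransferase, rose from 4.44 and 3.38 to 7.25 and 7.00, and the sialyltransferase St3gal6 from 5.38 and 5.39 to 7.31 and 6.90. B4galt6, a lactosylceramide synthase, fell from 6.27 and 6.72 to 4.04 and 3.61. With B3gnt5, which extends lactosylceramide, successive enzymes of lacto-series glycolipids were lower in KO. Pla2g7, which degrades platelet-activating factor, rose from 3.17 and 3.95 to 6.74 and 6.33.

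Genes of growth and division gave few calls with all arrays in the fit. None of 123 cell cycle and mitosis genes was called by limma (3 higher and 7 lower at an unadjusted p under 0.05), with a median difference of -0.15. That none was called depended on KO LSK replicate 2: when it was left out, some of the 123 genes were called lower. Ect2, a mitotic exchange factor, read 7.41 and 7.24 in Het and 5.93 and 7.11 in KO, and Kif23 8.07 and 8.40 against 7.13 and 7.89, so KO replicate 1 was lower than replicate 2 in both. Of 14 genes of D cyclins, their kinases and inhibitors, which govern entry into the cycle, 2 fell and 1 rose. Ccnd1 fell from 7.28 in both Het arrays to 5.60 and 5.59 and Ccnd2 from 9.66 and 9.82 to 8.63 and 8.59, both stable, and the other D cyclin, Ccnd3, read 8.10 and 8.08 against 8.18 and 8.03 and was not called. Cdk6, the kinase that rose (10.26 and 10.04 against 10.81 and 10.65), was not called without Het LSK replicate 2 or KO LSK replicate 1.

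Protein synthesis genes gave few calls. Of 77 mitochondrial ribosomal proteins none was called (1 higher and 4 lower at an unadjusted limma p under 0.05; 2 lower without KO LSK replicate 2), nor of 32 tRNA synthetases (0 higher and 2 lower). Of 61 cytoplasmic ribosomal proteins Rps4l alone was called (6.58 and 6.45 in Het, 5.39 and 5.74 in KO), and of 48 proteasome genes Psme4 alone, which was not called without KO LSK replicate 1 or either Het LSK array. Of 37 genes of apoptosis and the BCL2 family 3 rose and 1 fell (10.8% called, beside 7.81% of all genes). Bcl2 fell from 8.30 and 7.98 to 6.07 and 6.42, and Bcl2l1, which encodes BCL-XL, rose from 6.20 in both Het arrays to 7.87 and 7.66. Apaf1, the scaffold of the apoptosome, and Casp12, a caspase, rose by 0.86 and 0.99.

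Of 163 cytoskeleton genes 15 fell and 3 rose (11% called, beside 7.81% of all genes). Lsp1 was followed by Myl10, a myosin light chain (7.14 and 6.53 in Het, 4.35 and 4.38 in KO), Actn1, which crosslinks actin (6.39 and 6.67 against 4.35 and 4.52), and Marcks, a membrane-actin linker (7.70 and 7.44 against 5.73 and 5.34). Without Het LSK replicate 2 there were 8 lower, and without KO LSK replicate 2 there were 5 higher. Of 65 interferon response genes 10 fell and 2 rose (18.5%), led by Ifitm1, a surface protein of primitive cells (11.86 and 11.59 against 9.44 and 9.76), and Ifit3 (4.83 and 4.64 against 3.39 and 2.90). The count lower was 5 without Het LSK replicate 1 and 6 without KO LSK replicate 2, and no rise was called without Het LSK replicate 2.

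The same contrast in GMP shows which of these changes differ with the cell type. The 2 contrasts use separate arrays of cells from the same mice, and the labels do not pair those arrays by mouse. In GMP 1312 rows were called, and 616 were called in both cell types, 36.6% of the LSK calls and 47.0% of the GMP calls, 590 in the same direction and 26 in opposite ones. The difference between the contrasts, tested itself, passed in 499 rows, or 2.29%, and in 328 of the 1684 LSK calls (19.5%), 91 of the rises and 237 of the falls. That count of 499 moved with the arrays in the fit. It was lower in each refit without 1 array except the one without KO LSK replicate 1, where it was higher. Il7r fell by 1.84 on the log2 scale in LSK and was higher by 2.03 in KO GMP. Car2 fell by 1.76 in LSK and differed by 0.89 in GMP, where it was not called (adjusted p = 0.0951 by limma). Of the 10 platelet receptor genes that rose in LSK, 3 rose by more in GMP by that test (F2r by 4.45 and Gp5 by 4.44, with Itga2b), and for the other 7 the difference was not called. Cpa3 (0.93 in GMP) and Cd200r3 (0.76) differed less there than in LSK.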

How the data were processed

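The values are the deposited log2 expression values of 8 Affymetrix Mouse Gene 1.0 ST arrays, which the authors made with RMA, per the submitters' processing notes; the scanner files were not used here. Groups came from the sample titles and genotypes, with 2 arrays each, from separate mice. Symbols came from the platform's annotation: 21789 of 35556 rows carried 1 symbol, 1621 several and 12146 none, and 21698 were matched to RefSeq by Entrez number with 0 symbols changed. With R 4.3.3 and limma 3.58.1, 4 group means were fitted over all 8 arrays (4 residual and 4.825 prior degrees of freedom), since an exact test of 2 arrays against 2 cannot go below p = 0.333. Tests were two-sided, with Benjamini-Hochberg adjustment over the 21789 rows. Where a gene has several rows, the one with the highest mean stands for it.

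The members, 81 families by symbol rules (5882 genes) and marker lists were chosen with earlier results of these data known. Named genes were the 15 largest rises and falls, up to 4 called members a family (for families without a call, 2 members), markers, Cbfb and Runx1, and the 5 largest noisy calls; predicted genes were not named, and Cd200r1, Cd200r2, Id3 and Ccnd3 were added after their values were seen. The fit was tested on simulated data. Array probes of near-identical genes can cross-hybridise, RMA compresses small signals, and the number of arrays limits the precision. Replicate numbers were not used as pairs, since the labels do not say that a number marks a shared mouse. Same-numbered LSK and GMP arrays deviated from their group means with a correlation of 0.1325 in Het and 0.1787 in KO. Het and KO arrays come from different mice, and for same-numbered LSK arrays of the 2 genotypes the correlation was -0.1429. Classes from protein sequence were not run.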

Additional observations from a re-analysis of the deposited data

Results flagged for a closer look

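The KO minus Het difference in GMP was set against that in LSK by a test of the difference itself in the limma fit, and genes of the report that passed at an adjusted p under 0.05 are given with the GMP difference minus the LSK difference, in log2. A positive value beside a fall in LSK means that the fall was smaller in GMP or turned to a higher level there. No explanation was tested.

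Secreted factors that fell in LSK gave positive values: Ccl3 4.30, Wfdc17 4.27, Il18 2.59, Wfdc18 2.48, Ltb 2.09, Bgn 1.87, Ctsw 1.78, Ccl5 1.63 and Tnfsf10 1.30. Genes of the B and T lineages did as well, with Il7r at 3.86, Blnk 3.58, Ebf1 3.34, Vpreb3 3.29, Cd79a 3.11, Igll1 2.53, Cd72 2.0, Ccr9 1.56, Nkg7 2.14, Il2rb 1.31 and Notch1 1.08. In GMP the KO minus Het difference was 0.23 for Blnk, -0.08 for Ebf1, -0.17 for Vpreb3 and 0.07 for Cd79a, none of them called. Nkg7 was called lower there (-1.41), and Il7r was higher in KO GMP. Levels in GMP are not given here, so whether these genes had expression to lose there was not tested. Among other surface genes that fell in LSK the value was 2.61 for Thy1, 2.51 for Flt3, 2.33 for Emb, 2.12 for Procr, 1.77 for Cd74, 1.6 for Pdgfrb, 1.48 for Gpr171 and 1.10 for Itgb5. Nuclear genes that fell gave 2.39 for Mecom, 1.88 for Klf12, 1.72 for Nfatc2 and 1.15 for Prdm16. Enzymes and structural genes gave 2.86 for Lsp1, 2.65 for Car2, 2.38 for Myl10, 2.27 for Ldhb, 2.11 for B4galt6, 2.05 for Fads2, 1.99 for Ifit3, 1.36 for Actn1 and 0.83 for Ccnd1.

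Rises in LSK that were smaller in GMP gave negative values: Cd200r3 -3.41, Cpa3 -2.99, Cd200r4 -2.50, Pla2g7 -2.47, Fgf10 -2.43, Chd7 -2.09, Cxcr2 -1.93, Hdc -1.91, Clec4e -1.74, Slc7a8 -1.38, Abcc4 -1.03 and Prkar2b -0.88. Some genes used by platelets and their precursors passed with positive values. These were Pf4 at 3.48, Gp9 3.20, Prkcq 2.90, Lat 2.15, F2r 2.13, Vwf 1.90, Ppbp 1.8, Itga2b 1.6 and Gp5 1.45. The sialyltransferase St3gal6 also gave a positive value, 1.61. For the platelet markers Clec1b (-1.13), Treml1 (0.94) and Itgb3 (1.58) the difference was not called (limma adjusted p of 0.103, 0.241 and 0.0841). Pf4, lower in KO by 1.25 in LSK, was higher by 2.23 in KO GMP.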

How the results depend on the processing

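The rows called (1684) numbered 199 against a 2-fold minimum (93 higher, 106 lower) and 1071 in the fit of the 4 LSK arrays alone (418 higher, 653 lower). Leaving out 1 array gave 994 to 1614 rows, 374 to 649 higher and 588 to 965 lower. The difference from GMP was called in 44 rows against a 2-fold minimum, in 182 when rows with several symbols or none were tested too, and in 223 to 705 when 1 array was left out. The rows separated by more than the replicate gap fell from 3896 to 2051 when 2 times that gap was required. With the replicate block 1570 rows were called (602 higher, 968 lower), and a crossed replicate block, chosen after seeing the data because same-numbered arrays deviated in opposite directions, gave 1820. With a random block for LSK and GMP arrays of the same genotype and number, 1685 rows were called in LSK. The difference from GMP was then called in 719 rows. Subtracting array medians turned the balance, with 52.4% of calls higher against 39.0%. Of 368 genes the naming rule took, none whose difference was called in either of the settings compared changed direction; 176 kept their side of the threshold against the 2-fold minimum, 321 with the 4 LSK arrays alone and 361 with the replicate block. The planned classes from protein sequence could not be run. Why counts moved was not tested.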

Other observations

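Rows of genes that blood cells are not known to use gave a view of the dim end of the arrays. Of 1203 odorant and pheromone receptor genes 17 were called higher and 1 lower (1.5%, beside 7.81% of all genes), with a median difference of 0.12 beside 0.01 over all genes. None of these calls was stable: 64 were higher without KO LSK replicate 1 and 2 without Het LSK replicate 2, and 36 were higher after array medians were subtracted. Ighm, the heavy chain gene of immunoglobulin M, read 4.91 and 4.87 in Het and 7.34 and 4.39 in KO, so a single KO array was high while other B cell genes such as Cd79a were low in both.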
